A study of Homo sapiens with 18 samples.

Results

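The transcripts described here are 10 genes of the interleukin-1 and interleukin-6 cytokine axes, namely IL1A, IL1B, IL1RN, IL1R1, IL6, IL6ST, IL11, LIF, IL24 and SOCS3. They were taken by name from the annotation on the arrays, as 10 of 30484 gene names and 16 of 41000 probes. The rule uses names and no measured value, but the genes were proposed with earlier results of these data known. RNA came from A549, an established line of lung adenocarcinoma epithelial cells, in 6 groups of 3 cultures lettered A, B and C. Cells were exposed for 2 h without serum to Ludox® silica nanoparticles (NPs), either SM30 (labelled diameter 9 nm) or AS30 (18 nm) at the same dose, and recovered in complete medium. SM30-treated cells were sampled after 3 h of recovery, AS30-treated cells after 3 h and after 22 h. Each of these groups had its own control group, which went through the same change of medium without NPs. SM30 was not sampled at 22 h, and 1 cell line was used throughout.

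The interleukin-1 cytokines IL-1α and IL-1β, encoded by IL1A and IL1B, bind the receptor encoded by IL1R1 and switch on NF-kB, and the antagonist encoded by IL1RN occupies the same receptor without signalling. IL-6, IL-11 and LIF each bind a receptor chain of their own and then recruit the shared subunit gp130 (IL6ST), which activates JAK kinases and the transcription factor STAT3. SOCS3 is a STAT3 target that binds gp130 and JAKs and damps this signal. IL-24 belongs to the IL-20 subfamily and also signals through STAT3, by receptors without gp130. In airway epithelium IL-1 is known as an inducer of IL-6 and of chemokines.

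On the arrays 10 of the 16 probes had enough measured spots to be tested, and these covered 7 of the 10 genes. IL1A, IL1RN and IL24 were too dim on most arrays for the fit, so that their signals are given below without a fitted ratio. IL1A, IL1B and IL6 were each printed as 10 spots per array and the other members as 1 spot per probe. Over the 18 arrays 51.9% to 72.4% of spots were well above background and none was saturated. All 5 epithelial markers (KRT8, KRT18, KRT19, EPCAM, CDH1) were well above background on most arrays, with a summed signal of 208400 to 345100. Of the 8 leukocyte markers 5 were, with a summed signal of 1779 to 2803 in SM30-treated cells and their controls and of 3389 to 11070 in the AS30 groups. PTPRC, the pan-leukocyte marker, cleared background on none of the arrays. Of 4 endothelial markers 0 and of 5 fibroblast markers 1 were above background on most arrays. In such bulk RNA, fewer cells of a type and less RNA per cell cannot be told apart. The 18 arrays lay on 5 slides, and no slide held arrays of both the SM30 and the AS30 sets.

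Promoter sequence is shown for IL6, IL1B and IL11, because these had the largest log2 ratios after SM30 among the members tested. The RefSeq table of transcription start sites (build GRCh38.p14) held 16 windows for 9 of the 10 members and none named LIF. The 250 bases before the start site lie at chr7:22726950-22727199 on the plus strand for IL6, at chr2:112836780-112837029 on the minus strand for IL1B and at chr19:55370464-55370713 on the minus strand for IL11, and are printed 5′ to 3′ on the strand of the gene with the matched motifs in capitals.
IL6: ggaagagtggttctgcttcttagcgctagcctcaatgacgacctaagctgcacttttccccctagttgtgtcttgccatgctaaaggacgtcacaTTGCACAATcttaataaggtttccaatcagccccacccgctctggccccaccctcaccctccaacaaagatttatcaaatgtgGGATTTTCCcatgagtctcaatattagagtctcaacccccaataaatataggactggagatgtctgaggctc
IL1B: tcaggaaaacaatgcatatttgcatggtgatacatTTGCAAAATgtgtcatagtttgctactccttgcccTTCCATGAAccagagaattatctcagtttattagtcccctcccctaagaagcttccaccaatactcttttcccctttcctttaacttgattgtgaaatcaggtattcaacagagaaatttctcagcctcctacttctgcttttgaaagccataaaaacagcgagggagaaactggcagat
IL11: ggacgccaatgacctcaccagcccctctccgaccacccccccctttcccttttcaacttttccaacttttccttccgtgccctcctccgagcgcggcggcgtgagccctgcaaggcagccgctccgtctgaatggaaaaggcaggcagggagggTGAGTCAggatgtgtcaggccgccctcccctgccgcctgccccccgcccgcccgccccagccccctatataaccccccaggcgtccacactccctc
The capitals in IL6 mark TTGCACAAT, a match to the C/EBP letters TTGCNNAAT at 155 to 147 bases before the start, and GGATTTTCC, a match to the NF-kB letters GGANTTTCC at 72 to 64 bases before it. In IL1B they mark TTGCAAAAT, again the C/EBP letters, at 215 to 207 bases, and TTCCATGAA, a match to the STAT letters TTCNNNGAA, at 180 to 172 bases. In IL11 they mark TGAGTCA, a match to the AP-1 letters TGANTCA, at 96 to 90 bases. Searched on both strands of all 35116 windows of that length, the NF-kB letters occurred in 1.45%, the C/EBP letters in 2.39%, the AP-1 letters in 6.57% and the STAT letters in 6.57%. Among the 16 member windows IL6 was the only gene with the NF-kB letters, and IL1A and IL1RN shared the AP-1 letters with IL11. The CRE letters TGACGTCA (1.65% of all windows) and the stricter STAT letters TTCCNGGAA (0.968%), which are contained in TTCNNNGAA, had no match in a member window, and TATAAA (10.7%) was found for IL1A, IL1RN and IL1R1. A match describes letters and was not tested as a binding site.

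After SM30 at 3 h the ligands of both axes stood above their controls, IL6 and IL1B by about the same ratio on the log2 scale, IL11 and LIF by less. Of the 7 members tested, each by its brightest probe, 1 rose and 0 fell at an adjusted p under 0.05 (limma on the log2 ratios of treated over control arrays, Benjamini-Hochberg over all probes), where 4.35% of all probes were called higher and 3.13% lower. All 3 treated arrays lay above all 3 controls for 6 of the 7 members, against 19.2% of all probes. The median log2 ratio of the 7 was 0.64, and that of all probes was -0.054.

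IL11 encodes a gp130 cytokine, and its probe lies at chr19:60568771-60568830 on the minus strand (hg18, the build of the array files, as for every probe position given here). Its normalised signals were 11750, 14080 and 11390 in replicates A, B and C of SM30-treated cells, against control signals of 5619, 5729 and 6308. No treated array overlapped a control, and the lowest treated signal was well over the highest control. IL11 rose 2.10-fold (log2 ratio 1.07, SE 0.2, n = 3 pairs, limma adjusted p = 0.018). The call needed all 3 SM30 pairs. Without pair A the log2 ratio was 1.07 and the adjusted p 0.082, without pair B 0.96 and 0.12, and without pair C 1.18 and 0.076. With 1 pair fewer the calls over all probes also went down, from 2146 to 567, 289 and 298. With slide as a fixed term the SM30 ratio rests on treated array A against the 3 controls on slide 1, because treated arrays B and C lay on slide 2 without a control. IL11 then kept a log2 ratio of 1 but not the call.

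IL6, the name-giving cytokine of its family, was read by 10 spots of a probe at chr7:22737732-22737791 on the plus strand. Its signals were 2301, 2175 and 1960 in SM30-treated cells and 546, 535 and 557 in their controls. The groups were far apart and each was narrow. The log2 ratio was 1.97 (SE 0.71, 95% interval 0.34 to 3.6, 3.92-fold) and the limma adjusted p was 0.13. The 3 pairs gave ratios of 2.07, 2.02 and 1.82, an SD of 0.14, whereas the SE is drawn from all 9 pairs, including the AS30 pairs, whose IL6 ratios had SDs of 0.86 at 3 h and 2.37 at 22 h. When SM30 was fitted on its own 3 pairs, IL6 passed the threshold (adjusted p = 0.012), and it did so in 5 of 24 alternative settings, with log2 ratios of 1.47 to 2.08 over all of them and adjusted p-values from 0.0089 to 0.46.

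LIF, a gp130 cytokine with pleiotropic effects on differentiation, was read at chr22:28966713-28966772 on the minus strand. SM30-treated cells gave 4020, 4188 and 3536, and their controls 2551, 2317 and 2638. The treated arrays were again all above the controls, by a smaller margin than for IL6. The log2 ratio was 0.64 (SE 0.18, 95% interval 0.23 to 1.06, 1.56-fold, limma adjusted p = 0.068), and 4 of 24 alternatives called it. A second LIF probe (chr22:28969661-28969720) was dim, well above background on 5 of 18 arrays, with none of the SM30 controls among them. The lower bound on its fold after SM30, which carries no interval, was 1.096 (2 of 3 treated arrays above background). In the fit the 95% interval of this probe lay on both sides of no change (limma adjusted p = 0.52), so it does not show a rise.

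IL1B encodes the secreted, inflammasome-processed IL-1, and its 10 spots lie at chr2:113303900-113303959 on the minus strand. Signals were 132, 171 and 138 in SM30-treated cells and 32.7, 40.5 and 37.9 in the controls. These groups did not overlap either, although IL1B was dim, with 12 of 18 arrays well above background. The log2 ratio was 1.99 (SE 0.81, 95% interval 0.13 to 3.85, 3.96-fold) with a limma adjusted p of 0.17. Pair ratios were 2.02, 2.08 and 1.86, with an SD of 0.11 against 1.31 and 2.57 in the AS30 pairs at 3 h and 22 h. Fitted on its own pairs it reached an adjusted p of 0.012. Under normexp, another background correction, its log2 ratio shrank to 0.47 (adjusted p = 0.03). The range over 24 alternatives was 0.47 to 2.15, with adjusted p-values from 0.0035 to 0.65.

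IL1A encodes the cell-associated alarmin IL-1α and was read by 10 spots at chr2:113248833-113248892 on the minus strand. With dim spots kept, signals were 16.3, 20.5 and 24.0 in SM30-treated cells and 6.43, 6.99 and 7.05 in the controls. It was well above background on all 3 SM30 arrays and on no other of the 18. Because the controls set only a limit, the fold of IL1A after SM30 is given as a lower bound, 1.13, without an interval. With dim spots kept in the fit, where 41000 probes were tested, its log2 ratio was 1.58 (limma adjusted p = 0.014), and with outlier spots kept it was 1 (adjusted p = 0.54). IL1RN, the antagonist, was well above background on 1 array with its first probe (chr2:113607479-113607538), a control of the SM30 set at 28.8, and on none with its second, so that the arrays gave no usable level for it.

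IL24 was read at chr1:205143594-205143653 on the plus strand by 1 spot. It gave 27.2, 32.8 and 32.2 in SM30-treated cells, all well above background, and 5.84, 7.54 and 5.93 in the controls, none of which was. The lower bound on the fold of IL24 after SM30 was 1.73, and with dim spots kept the log2 ratio of IL24 was 2.26 (limma adjusted p = 0.13). The second IL24 probe was also well above background on the 3 SM30 arrays and on no other, at 19.8, 16.0 and 12.8 against 5.72, 5.94 and 6.01 in the controls. For this second probe the bound showed no rise, so no fold is given. IL24 therefore shared with IL1A a signal that cleared background on every SM30 array and on no control.

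The receptor and feedback members moved less than the ligands. SOCS3 (chr17:73864722-73864781, minus strand) gave 2153, 2469 and 2087 in SM30-treated cells and 1662, 1630 and 1737 in the controls. The groups did not overlap, and the log2 ratio was 0.41 (SE 0.19, 95% interval -0.02 to 0.85, limma adjusted p = 0.22). A second SOCS3 probe (chr17:73866154-73866213) had a log2 ratio of -0.07 from 2 measured pairs (adjusted p = 0.95), so the probes differed in sign. IL6ST, the gp130 subunit itself (chr5:55272485-55272544, minus strand), gave 190.4, 207 and 227 against 189.9, 156 and 139. Its treated arrays lay just above the highest control, with a log2 ratio of 0.37 (SE 0.27, adjusted p = 0.42). IL1R1, the signalling IL-1 receptor (chr2:102158420-102158479, plus strand), gave 282, 370 and 313 against 278, 303 and 333. These overlapped, at a log2 ratio of 0.07 (95% interval -0.38 to 0.52, adjusted p = 0.86).

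**Figure D1:**
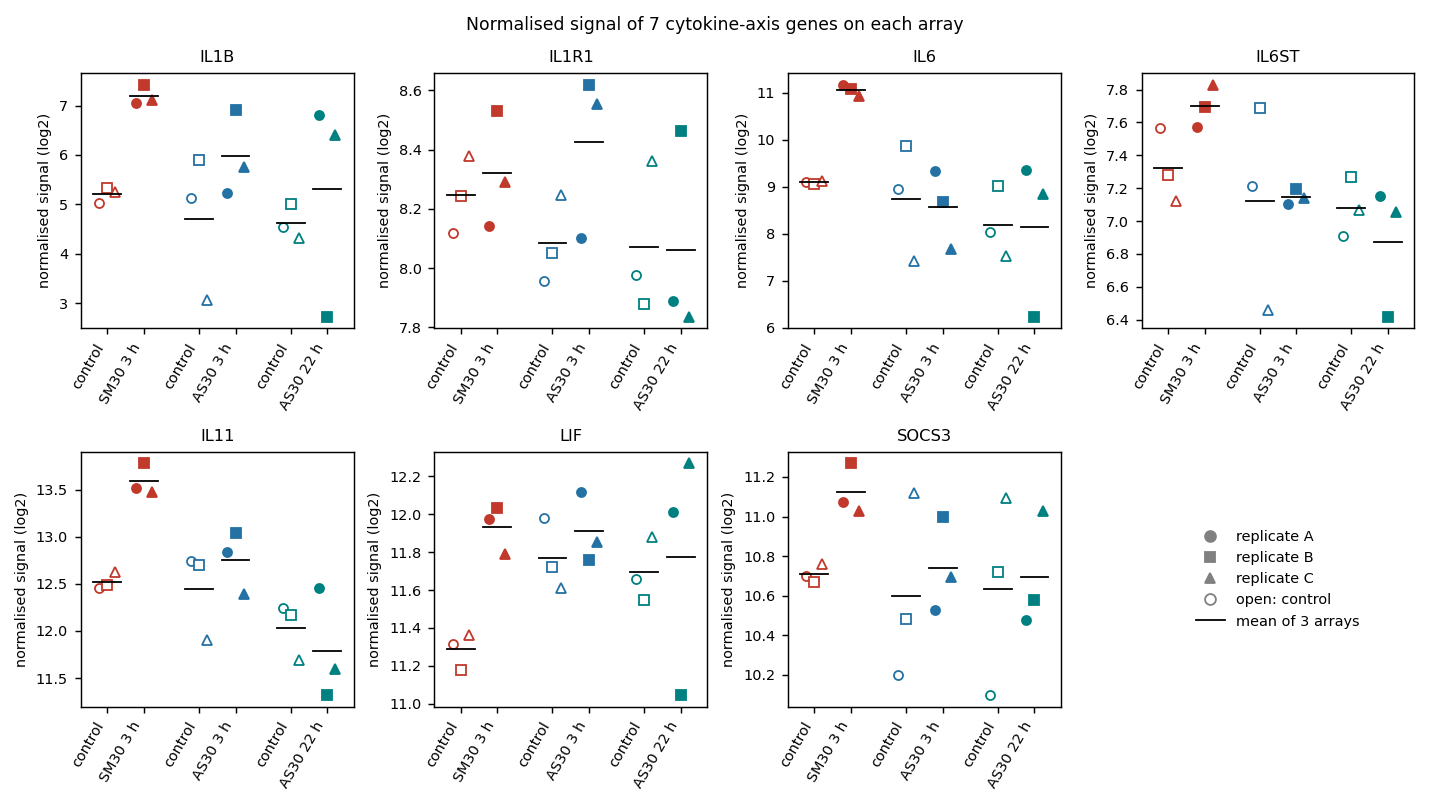
Normalised log2 signal of the 7 tested members on each of the 18 arrays. Open symbols are controls, filled symbols NP-treated cells, symbol shapes are the replicate letters, lines are means of 3 arrays, and each panel has its own vertical range; the filled SM30 symbols lie above the open symbols of their controls for every gene but IL1R1.

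After AS30 at 3 h none of the 7 members passed the test in either direction, against 1.5% of probes called higher and 1.01% called lower, and 0 of the 7 had an unadjusted p under 0.05. No member had all treated arrays above all controls (13.2% of all probes did). The median log2 ratio was 0.14, and 0.013 over all probes. IL6 gave 644, 412 and 204 in treated cells and 494, 927 and 171 in controls. Both groups spread over a wide range and lay across each other, with pair ratios of 0.38, -1.17 and 0.26 and a log2 ratio of -0.18 (95% interval -1.81 to 1.45, limma adjusted p = 0.9). IL1B gave 37.8, 121 and 54.0 against 34.9, 59.5 and 8.35, and the last of these controls rested on 1 of its 10 spots. Its log2 ratio was 1.28 (95% interval -0.58 to 3.14, adjusted p = 0.36), and the pair with that control contributed 2.69 where the others contributed 0.11 and 1.03.

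IL11 in the same AS30 cells gave 7342, 8399 and 5364 against 6846, 6649 and 3822. The log2 ratio was 0.31 (95% interval -0.14 to 0.76, adjusted p = 0.36). LIF gave 4448, 3461 and 3704 against 4040, 3376 and 3130, a log2 ratio of 0.14 with an adjusted p of 0.66, and the arrays of both genes overlapped. SOCS3 (0.14) and IL6ST (0.02) were likewise near their controls, with adjusted p-values of 0.68 and 0.97. IL1R1 was at 275, 393 and 376 against 248, 265 and 304, a log2 ratio of 0.34 (adjusted p = 0.32). The second IL1R1 probe (chr2:102161826-102161885) was called higher, at 50.5, 75.5 and 74.3 against 32.5, 43.4 and 35.0, a log2 ratio of 0.84 (SE 0.16, adjusted p = 0.043), with 1 of those 3 controls well above background. IL24 was well above background in 1 treated array (47.2, then 18.6 and 11.1) and in no control, and IL1A in none.

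After AS30 at 22 h 0 of the 7 members were called, where 2.54% of all probes were called higher and 1.04% lower, 0 had an unadjusted p under 0.05, and 0 had all treated arrays above the controls (12.8% of all probes). IL6 was at 655, 75.3 and 458 in treated cells and at 264, 521 and 183 in controls. Treated cultures A and C were above their controls by log2 ratios of 1.31 and 1.32, and culture B was below by -2.79. The mean was -0.05 (95% interval -1.68 to 1.58, limma adjusted p = 0.98). IL1B followed the same pattern, at 112, 6.598 and 84.4 in treated cells, the value of culture B resting on 1 of 10 spots, and at 23.2, 32.1 and 19.9 in controls, none of which was well above background. The bound on its fold was under 1, so none is given, and its adjusted p was 0.66. Without pair B, the IL6 log2 ratio was 1.32 (adjusted p = 0.078), and IL1B, still without a fold, had an adjusted p of 0.056.

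IL11 gave 5615, 2557 and 3104 against 4847, 4618 and 3309 at 22 h, and LIF 4127, 2114 and 4939 against 3232, 2990 and 3766. Culture B was again the lowest treated array for both. The log2 ratios were -0.24 for IL11 (adjusted p = 0.5) and 0.08 for LIF (adjusted p = 0.83). SOCS3 (0.06), IL1R1 (-0.01) and IL6ST (-0.21) had adjusted p-values of 0.89, 0.98 and 0.69. The second LIF probe was measured in 2 pairs, with controls not well above background (adjusted p = 0.057). IL24 was well above background in treated culture A (71.6) and not in B or C (5.84 and 8.11).

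The array of AS30 22 h culture B was the lowest of its group for 5 of the 7 members (IL1B, IL6, IL6ST, IL11 and LIF) and the highest for IL1R1. The array of AS30 3 h control C was the lowest of its group for the same 5 and the highest for IL1R1 and SOCS3. On these arrays 56.9% and 52.4% of spots were well above background, against 64.5% and 67.0% on the other AS30 22 h arrays and 61.7% and 61.9% on the other AS30 3 h controls. AS30 22 h controls A and B had similarly low shares, 52.4% and 51.9%. Control B was nevertheless the highest of its group for IL1B, IL6 and IL6ST, and the lowest for IL1R1 and LIF. The part of these differences in the cytokine values was not tested. For IL6 the SD of log2 signal among replicate spots was 0.041 to 0.238 (median 0.071), and among the 3 arrays it was 1.673 after AS30 at 22 h, 1.234 in AS30 3 h controls, 0.836 after AS30 at 3 h and 0.764 in AS30 22 h controls. In the SM30 set it was 0.117 in treated cells and 0.03 in controls, the latter below the spot SDs of those arrays (0.051 to 0.238). IL1B spots of the AS30 22 h controls also differed by more (0.406 to 0.484) than the arrays did (0.351).

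**Figure D2:**
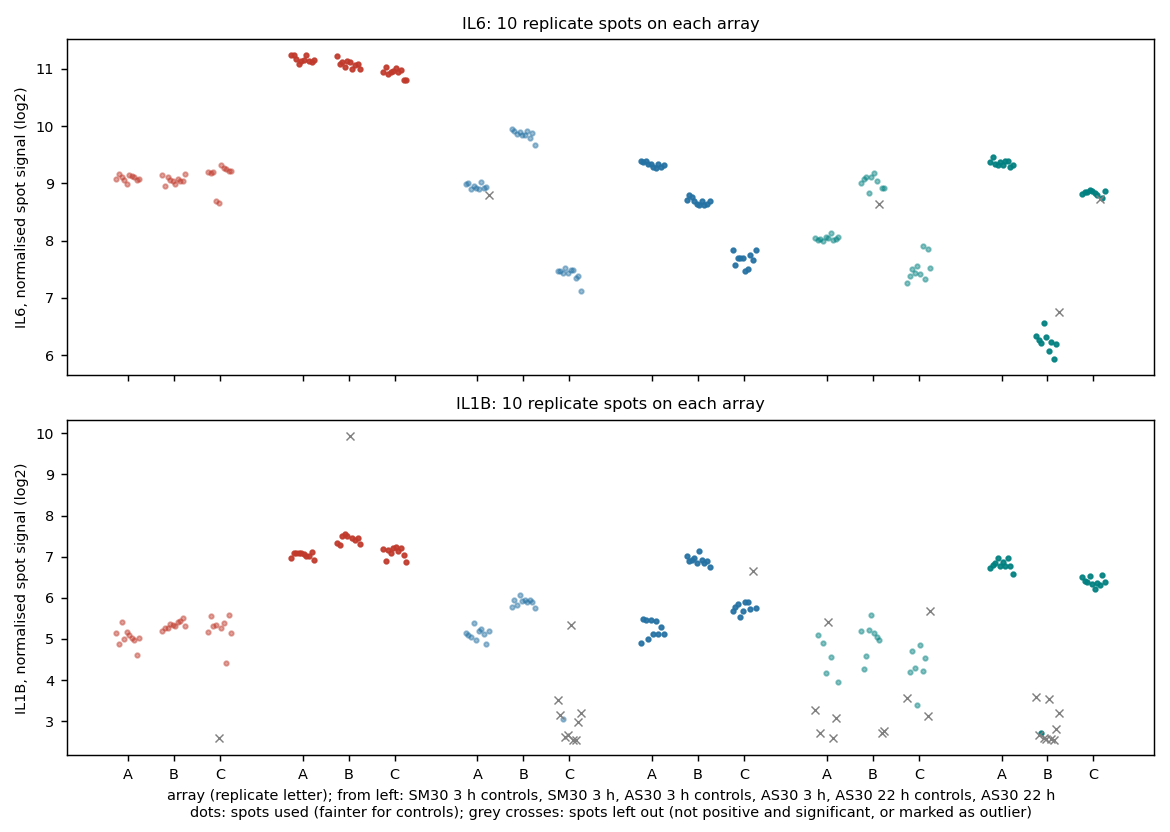
Normalised log2 signal of each of the 10 replicate spots of IL6 (top) and IL1B (bottom) on each of the 18 arrays, with the controls to the left of the treated arrays in each set. Dots are spots used and crosses spots left out, and replicate spots cluster tightly for IL6 (SD 0.041 to 0.238) while the arrays of the AS30 groups stand far apart.

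The NPs were compared directly at 3 h, as the SM30 ratios minus the AS30 ratios. Of the 7 members 0 were called, where 0.014% of all probes were called higher and 0% lower, and 1 had an unadjusted p under 0.05. IL11 differed by 0.76 (95% interval 0.13 to 1.4, limma adjusted p = 0.29) and IL6 by 2.15 (-0.15 to 4.45, adjusted p = 0.37). LIF differed by 0.5 (-0.08 to 1.09, adjusted p = 0.4), IL1B by 0.71 (-1.92 to 3.34, adjusted p = 0.8) and SOCS3 by 0.27 (-0.34 to 0.89, adjusted p = 0.66). IL6ST (0.35, adjusted p = 0.69) and IL1R1 (-0.27, adjusted p = 0.68) completed the set. Intervals of this width do not show that the NPs acted alike on these genes. AS30 at 22 h minus 3 h gave 0 of 7 calls too, where 0.0142% of all probes were called higher and 0.0142% lower, with -0.55 for IL11 (-1.19 to 0.08, adjusted p = 0.36) and 0.13 for IL6 (-2.18 to 2.43, adjusted p = 0.97). An F-test over the 3 classes called 0 of 7, against 0.0855% of all probes, with its lowest adjusted p at 0.13 for IL11. By the brightest probe of each gene, IL11 was the only member with an unadjusted p under 0.05 in these 3 comparisons.

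**Figure D3:**
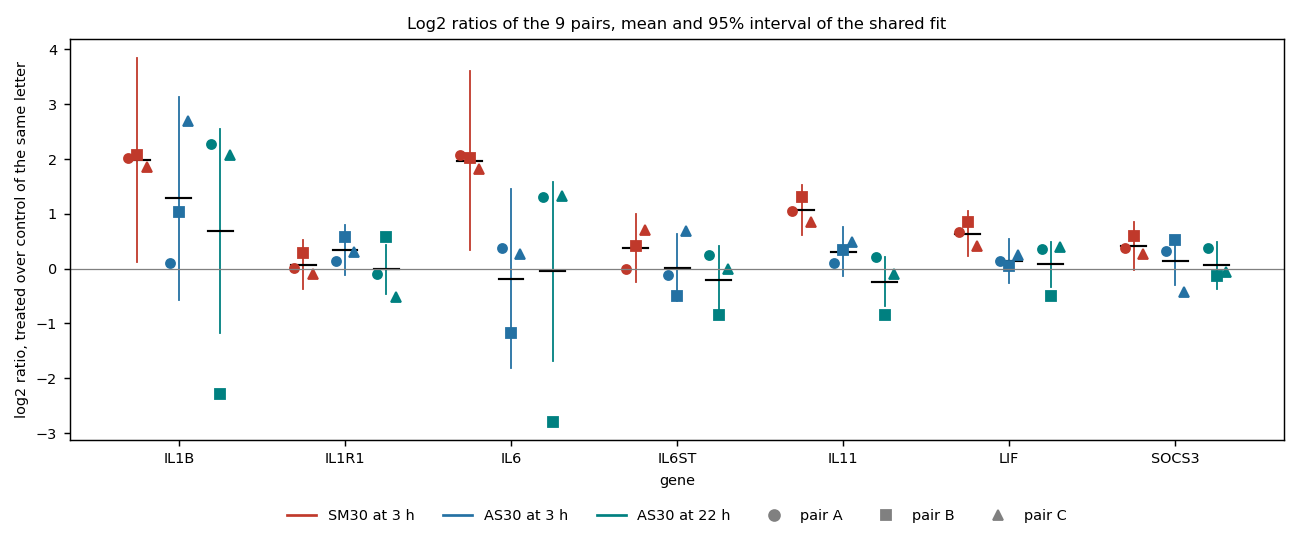
Log2 ratio of each treated array over the control of the same letter for the 7 members (points), with the class mean (bar) and its 95% interval in the limma fit over 9 pairs (line). The 3 SM30 points of IL6 and IL1B lie between 1.82 and 2.08, and pair B of AS30 at 22 h lies at -2.79 for IL6. The IL1B controls at 22 h were not well above background, so their ratios give no fold.

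The levels from which these ratios start were compared between control groups. None of the 7 members was called between AS30 and SM30 controls at 3 h, where 26.8% of all probes were, and none between AS30 controls at 22 h and 3 h (1.3% of all probes). The SM30 and AS30 controls were on different slides, so slide and set cannot be told apart. Between the 3 h control sets LIF differed by 0.48 (limma adjusted p = 0.14) and IL1B by -0.51 (adjusted p = 0.7). The IL1B value rested on AS30 control C with its 1 spot (8.35), since the other AS30 controls (34.9 and 59.5) were not below the range of the SM30 controls (32.7 to 40.5). Second probes did pass between the 3 h control sets, IL1R1 at -1 (adjusted p = 0.019) and SOCS3 at 0.99 (adjusted p = 0.049). The second LIF probe was measured on 1 AS30 control, with no SM30 control well above background, and is not compared. Within slide 1, which held SM30 array A and all 3 SM30 controls, the treated array stood above the mean of the controls by 2.08 for IL6, 1.84 for IL1B, 1 for IL11, 0.69 for LIF, 0.36 for SOCS3 and 0.25 for IL6ST, and at -0.11 for IL1R1. No slide held both AS30-treated arrays at 3 h and their controls, so slide and treatment cannot be told apart there. Within slide 5, with 3 AS30 22 h arrays and 1 control, the differences were 0.63 for IL6 and 0.1 for IL11, and none is given for IL1B, whose control was not well above background.

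Ordered by mean log2 signal, SM30 at 3 h was the highest of the 6 groups for IL6, IL1B, IL1A, IL11, IL6ST and SOCS3. For IL6, IL1B, IL1A and IL11 its 3 arrays lay above all 15 others. For IL6ST and SOCS3 they lay above the next group by mean, but AS30 3 h control B (206.5) exceeded the lowest SM30 array of IL6ST (190.4), and single arrays of 3 AS30 groups (2090, 2183 and 2224) exceeded that of SOCS3 (2087). For IL6 the step was from 9.09 in SM30 controls to 11.06, and every other pair of neighbours in the order overlapped, down to 8.14 after AS30 at 22 h. For IL11 it was from 12.76 (AS30 at 3 h) to 13.59, and for IL1B from 5.97 (AS30 at 3 h) to 7.19. SOCS3 went from 10.74 (AS30 at 3 h) to 11.12 and IL6ST from 7.32 (SM30 controls) to 7.7. LIF was highest in SM30-treated cells as well (11.93), but overlapped AS30 at 3 h (11.91), and its SM30 controls (11.29) were the lowest group and apart from the next (11.69). IL24 was highest after SM30 and overlapped AS30 at 3 h. IL1R1 had all 6 groups overlapping within 0.36 log2 units.

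Across the 18 arrays, which share their normalisation and fall into these same groups, IL6 followed IL6ST (Pearson r = 0.873) and IL11 (0.868) most closely among members, then IL1B (0.826). With each group centred on its own mean, IL6 and IL1B had 0.842, IL1B and IL6ST 0.809 and IL6 and IL11 0.796, whereas IL6 and IL1R1 had -0.756. The arrays of AS30 22 h culture B and AS30 3 h control C were the lowest of their groups for IL6, IL1B, IL6ST and IL11. Both were the highest of their groups for IL1R1, and on both IL1B rested on 1 of 10 spots. The part of these arrays in the correlations was not tested. The correlations describe how the arrays line up and carry no test. The probes of other genes most like IL6 over the 18 arrays were EPC1 and CXCL3 (0.923 for each), those most like IL11 were CXCL3 (0.96) and CDH19 (0.952), and those most like IL1B were MCTP1 (0.934) and CLDN12 (0.889). EPC1 (0.882) and SNAI2 (0.878) were most like IL6ST, ANPEP (0.853) and PTPN3 (0.846) most like LIF, PMS2L3 (0.858) and SNAI1 (0.852) most like SOCS3, and RAB21 (0.885) and TNS1 (0.848) most like IL1R1.

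Of the receptors through which the ligands act, IL6R, the ligand-binding IL-6 receptor, rose after both NPs at 3 h. SM30-treated cells gave 441, 461 and 489.9 against 172, 169 and 148.0, and AS30-treated cells 547, 539 and 369 against 184, 150.4 and 152. No treated array came near a control in either set. The log2 ratios were 1.51 (SE 0.18, limma adjusted p = 0.0043) and 1.57 (SE 0.18, adjusted p = 0.0096), and their difference was -0.05 (adjusted p = 0.94). At 22 h after AS30 IL6R gave 267, 172 and 257 against 187, 209 and 180.0, which overlapped, with a log2 ratio of 0.25 (adjusted p = 0.46). The drop from 3 h to 22 h was -1.32 (adjusted p = 0.11). The SM30 call held in 24 of 24 alternatives, and the AS30 call at 3 h in 21, being lost without pair B, with slide as a fixed term and when AS30 was fitted alone (highest adjusted p = 0.25).

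Of the 7 IL-6 family receptors listed 5 were tested, and after SM30 1 rose (IL6R) and 1 fell, IL27RA, the IL-27 receptor chain, at -0.76 (adjusted p = 0.0497, called in 9 of 24 alternatives), while its other probe gave -0.23 (adjusted p = 0.4). Of all probes 4.35% were called higher and 3.13% lower after SM30, and 1.5% higher and 1.01% lower after AS30 at 3 h. OSMR, the oncostatin M receptor, was at 0.6 (adjusted p = 0.067) after SM30, 0.47 (0.15) after AS30 at 3 h and 0.77 (adjusted p = 0.047, 10 of 24 alternatives) at 22 h, where it was the only IL-6 family receptor called. Its other probes were not called at 22 h (0.71, adjusted p = 0.1, and 0.41, adjusted p = 0.33), where 2.54% of all probes were called higher. LIFR, the LIF receptor, had 0.37, 0 and 0.21 and IL11RA, the IL-11 receptor, -0.03, -0.02 and 0.48 in the same order, with adjusted p-values of 0.15 or more. Other ligands of the family did not pass in any class, 0 of 6 tested out of 8 listed, OSM being at 0.91 after SM30 (adjusted p = 0.17). In the IL-1 receptor list 6 of 8 were tested and 0 passed at 3 h. IL1R2, the decoy receptor, fell at 22 h by 0.64 (adjusted p = 0.045), a call kept in 10 of 24 alternatives, where 1.04% of all probes were called lower. IL1RAP, the co-receptor, had 0.01, -0.38 and 0.53 (adjusted p = 0.98, 0.29 and 0.18). Of the other 8 IL-1 family ligands 3 were tested and 0 called in any class.

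In the IL-1 signalling list 1 of 12 genes tested after each NP at 3 h was called, against 4.35% of all probes that rose with SM30 and 1.5% with AS30. This was IRAK2, a kinase of the IL-1 receptor complex, which rose by log2 ratios of 1.9 after SM30 (73.9 to 85.7 against 18.3 to 24.2, adjusted p = 0.0028) and 1.36 after AS30 (109.9 to 116 against 34.9 to 54.5, adjusted p = 0.018). Its treated arrays were clear of the controls both times. The AS30 call was kept in 17 of 22 alternatives. It was lost without pair B, with dim spots kept, without the replicate block, with slide as a fixed term and when AS30 was fitted alone. The SM30 call was lost in 1 of 22 alternatives, slide as a fixed term, which left 1 SM30-treated array. Over the alternatives the log2 ratios went down to 0.33 after SM30 and 0.3 after AS30. At 22 h 2 of 11 were called (2.54% of all probes were called higher), IRAK2 from 1 measured pair with controls not well above background, and PYCARD, the inflammasome adaptor, at 0.94 (adjusted p = 0.042, 11 of 23 alternatives). MYD88, the adaptor of the receptor, had 0.27, 0.25 and 0.38, with adjusted p-values of 0.24, 0.26 and 0.13. Median ratios of the list were 0.15, 0.26 and 0.38 in SM30, AS30 at 3 h and AS30 at 22 h.

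Among 13 genes listed as IL-1 and NF-kB responses, 7 rose and 0 fell after SM30 (4.35% of all probes rose), with a median log2 ratio of 1.37. They were CCL20, a chemokine (545 to 624 against 58.9 to 66.7, 3.25, limma adjusted p = 0.0014), TNF (1.81, 0.0051), NFKBIZ, an atypical IkB needed for IL6 induction (1.37, 0.011), ICAM1, an adhesion receptor (2.39, 0.021), PTGS2, the inducible cyclooxygenase (2.02, 0.033), TNFAIP3, an NF-kB inhibitor (1.71, 0.033) and CXCL2, a neutrophil chemokine (1.35, 0.038). The other TNF probe gave 0.06 (adjusted p = 0.86) and the other CXCL2 probe 1.26 (adjusted p = 0.066). Other probes of PTGS2 (1.99, adjusted p = 0.048) and TNFAIP3 (1.72, adjusted p = 0.0057, well above background on 4 arrays) were called. CXCL8 (1.57, adjusted p = 0.14) and CXCL3 (1.25, adjusted p = 0.073) did not pass. Without SM30 pair A, B or C the count was 2 in each case, with medians of 1.39, 1.53 and 1.4, and without AS30 22 h pair B it was 9. With slide as a fixed term, which left 1 SM30-treated array, fewer of the 7 kept the call. CCL20 was called in 22 of 22 alternatives that tested it. After AS30 at 3 h 1 of 13 was called, CCL20 (147 to 442 against 48.7 to 81.6, 1.95, adjusted p = 0.016, lost without pair B), at a median of 0.63, and at 22 h 0 of 11 at a median of 0.22. Of all probes 1.5% were called higher after AS30 at 3 h and 2.54% at 22 h. ICAM1 was at 1.55 (adjusted p = 0.096) after AS30 at 3 h, and at 22 h its controls were not well above background (adjusted p = 0.084).

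Among 15 JAK-STAT genes tested STAT5A rose after SM30 (1.22, adjusted p = 0.011), and 0 were called after AS30 at 3 h. STAT5A was called at 22 h, at least 1.59-fold higher (adjusted p = 0.032), since its controls were not well above background. Its other probe was called in neither class (adjusted p = 0.1 after SM30 and 0.2 at 22 h). Beside the lists of this paragraph, 4.35% of all probes were called higher and 3.13% lower after SM30. These shares were 1.5% and 1.01% after AS30 at 3 h, and 2.54% and 1.04% at 22 h. STAT3 itself had 0.09, -0.03 and 0.13, with adjusted p-values of 0.71, 0.9 and 0.59. SOCS1 (0.67, adjusted p = 0.16) and CISH (1.2, adjusted p = 0.086), inhibitors of the SOCS family, did not pass after SM30. Of 12 gp130 and STAT3 response genes tested, CEBPB, the transcription factor also called NF-IL6, rose after both NPs at 3 h (1.14, adjusted p = 0.013, and 1.01, adjusted p = 0.04), while the fibrinogen chain FGA fell by 0.96 after SM30 (adjusted p = 0.032). The other CEBPB probe was not called after either NP (1.12, adjusted p = 0.052, and 1.32, adjusted p = 0.054). Other FGA probes were not called after SM30 (-0.72, adjusted p = 0.085, and -1.06, adjusted p = 0.1). The medians of this list were -0.1, 0.4 and -0.14, and 0 of its genes were called at 22 h. The IL-20 list had 2 of 7 genes tested, and IL22RA1, a receptor chain for IL-24, rose after SM30 (462 to 472 against 288 to 375, 0.51, adjusted p = 0.044), a call kept in 13 of 24 alternatives. A dimmer IL22RA1 probe, well above background on 13 of 18 arrays, was called after both NPs at 3 h, at 0.87 after SM30 (adjusted p = 0.0076) and 0.81 after AS30 (adjusted p = 0.022), where the brighter probe had 0.36 after AS30 (adjusted p = 0.13). Of 9 regulators of AU-rich mRNA, the element in IL6 and IL1B transcripts, ZFP36, which promotes their decay, rose after SM30 (0.97, adjusted p = 0.017), and 0 were called in the AS30 classes. Leaving out any SM30 pair ended the SM30 calls of STAT5A, CEBPB, FGA, IL22RA1, ZFP36 and IL27RA. The AS30 call of CEBPB was kept in 15 of 24 alternatives. It was lost without AS30 pair A or B at 3 h, without any 1 SM30 pair and without AS30 22 h pair C, among others. The 22 h calls of STAT5A, OSMR, IL1R2 and PYCARD were lost when AS30 22 h pair A or C, or any 1 SM30 pair, was left out, and that of IRAK2 without pair A.

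**Figure D4:**
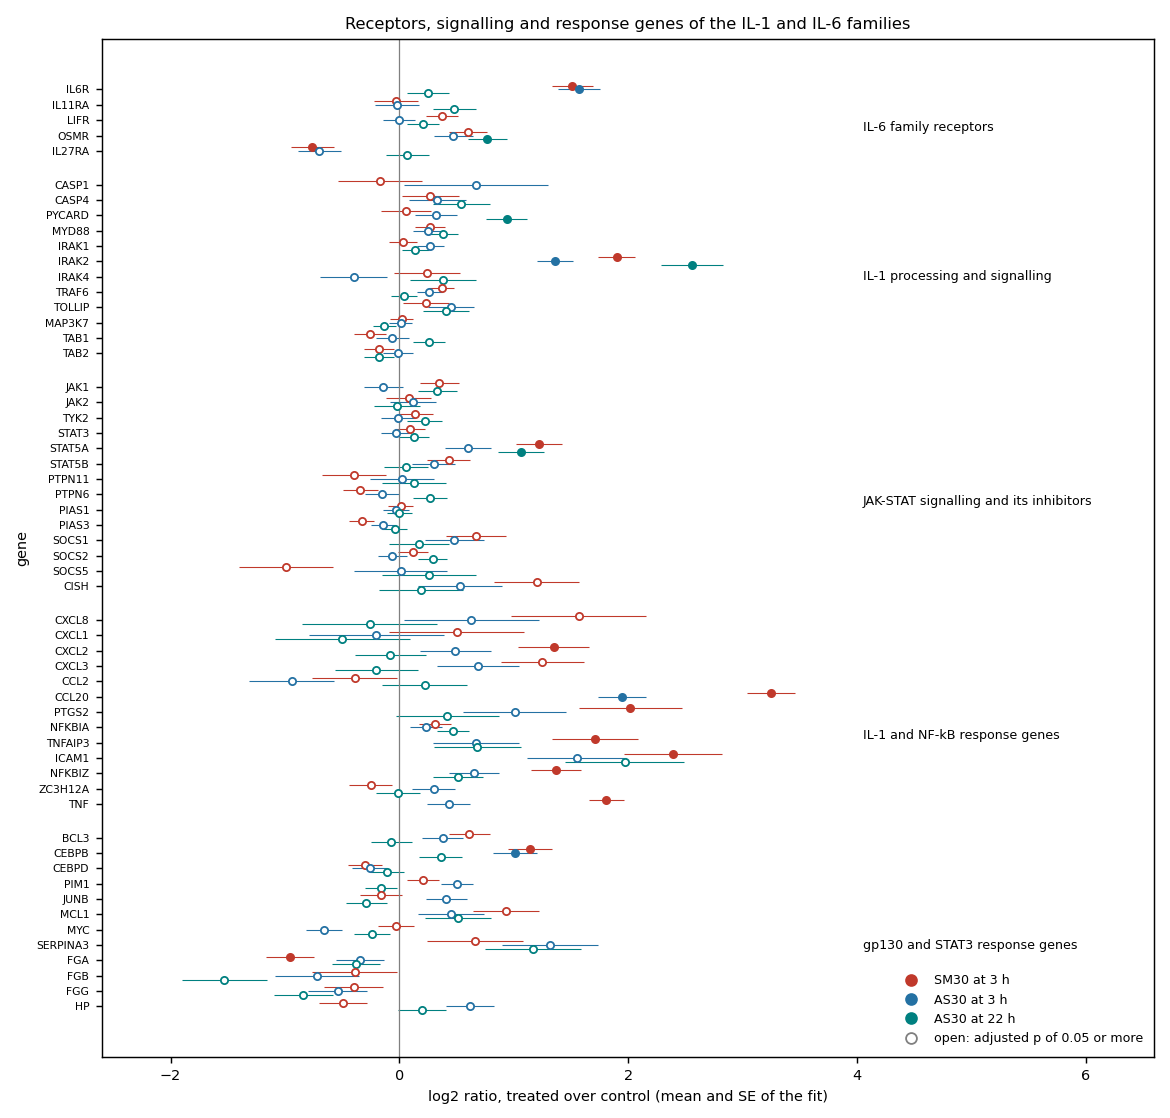
Log2 ratio (point) and SE (line) for genes of 5 of the lists, from the limma fit over 9 pairs, coloured by class. Filled points passed an adjusted p under 0.05; they include 7 of the 13 IL-1 and NF-kB response genes after SM30, and IL6R and IRAK2 after both NPs at 3 h.

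Of the 8 leukocyte markers 6 were tested, and 1 was called after SM30, 0 after AS30 at 3 h and 2 after AS30 at 22 h, all higher. Of all probes 4.35%, 1.5% and 2.54% were called higher in these classes. CSF1R was called after SM30 at 1.41 (adjusted p = 0.0086), and CSF1R (adjusted p = 0.029) and CD68 (adjusted p = 0.02) at 22 h. Not called after SM30 were CD68 (0.97, adjusted p = 0.053), ITGAM (0.38), CD79A (0.03), CD14 (-0.24) and CD3E (-0.56). After AS30 at 3 h all 6 had a log2 ratio above 0, with a median of 0.74, and in the other classes the median was 0.21 after SM30 and 0.15 at 22 h. PTPRC cleared background on no array. The summed signal of the 8 markers was 2268 to 2803 after SM30 against 1779 to 2311, and after AS30 8004 to 10910 against 3389 to 11070 at 3 h and 5379 to 8676 against 3984 to 8896 at 22 h. Also at 22 h the keratin KRT19 was called higher (1.21), the surfactant gene SFTPA1 lower (-0.87) and the fibroblast marker LUM lower (adjusted p = 0.031). Their part in the cytokine values was not tested.

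**Figure D5:**
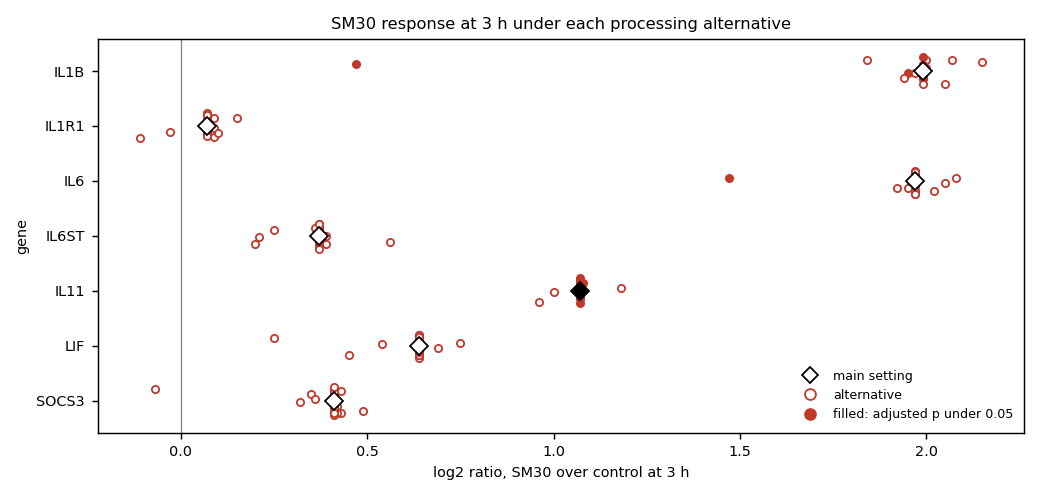
Log2 ratio after SM30 for the 7 members under the setting reported here (diamonds) and under each alternative (circles), filled where the adjusted p was under 0.05. IL11 stays between 0.96 and 1.18 and is filled in 20 of 24 tested alternatives, while IL6 and IL1B, with ratios near 2, are filled in 5. Alternatives that left out AS30 pairs could not move the IL11 ratio of 1.07, and those that left out an SM30 pair lost its call.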

How the data were processed

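RNA of 18 cultures was labelled with Cy3 and hybridised to 1-colour Agilent human arrays, 1 array per culture. The deposited scanner files hold spot intensities made by the authors with Agilent Feature Extraction, whose processed signal is already background-subtracted and detrended, and flags for spots that are positive and significant, well above background, outliers or saturated. A deposited table of the authors' quantile-normalised intensities served as an alternative. These units are arbitrary, and their precision is limited by the 3 arrays per group.

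The log2 processed signals of 43376 non-control spots were quantile-normalised over the 18 arrays. Spots not positive and significant, and outlier spots, were set to missing, replicate spots were averaged, and probes missing on over 33% of arrays were removed, which left 28665 of 41000 probes. Ratios were taken of every treated array over its control of the same letter, and limma 3.58.1 (R 4.3.3) was fitted to the 9 ratios as 3 classes with Benjamini-Hochberg adjustment over all probes and a threshold of 0.05. This fit has 6 residual degrees of freedom and a prior of 2.5, and shares 1 spread per probe among the classes. Controls were compared in a fit of 18 arrays as 6 groups. The fits were tested on simulated data. Signals of removed probes were computed with dim spots kept. A fold against a group not well above background on any array is a lower bound, set on each array by the dimmest probe that cleared background, or by the probe's own where higher, and both groups' means are normalised log2 values. Such a bound compares means and carries no interval or test.

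The brightest probe of each gene stood for it in counts. The members and gene lists were chosen with earlier results of these data known. List genes were named if called in a class against controls, with IL6R, IL11RA, LIFR, OSMR, IL1RAP and IL1R2 added by rule, and STAT3, MYD88, OSM, SOCS1, CISH, CXCL8, CXCL3, the leukocyte markers and the AS30 values of ICAM1 after their values were seen. Nothing but the letters distinguishes the cultures of a group, so p-values measure the spread among these cultures, which may be technical. Of the JAK-STAT list, 1 result is not reported here. Probe positions are those of the scanner files (hg18), and exon annotation of that build was not used here. Promoters came from a RefSeq table on GRCh38.p14. Alternatives covered scaling, background correction, spot and probe filters, probe choice, the deposited table, slide, the replicate block and leaving out each pair.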

Additional observations from a re-analysis of the deposited data

How the results depend on the processing

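The count of members called after SM30 was 1 as reported. It was 3 with normexp background correction (IL1B, IL6, IL11), 3 with spots not well above background set to missing (IL1B, IL11, LIF), 3 with each class fitted alone (IL1B, IL6, IL11) and 2 of 10 with dim spots kept (IL1A, IL11). It was 4 with ratios over the mean of the 3 controls (IL6, IL11, LIF, SOCS3), where the spread among controls does not enter the p-values. With slide as a fixed term, which left 1 SM30-treated array against 3 controls, IL11 lost the call. Calls over all probes also went down when an SM30 pair was left out, as given above. A change in the member count alone is therefore no result about these genes. Leaving out 1 pair gave 0 to 4 members, 0 when any 1 SM30 pair was left out and 4 without AS30 22 h pair B (IL1B, IL6, IL11, LIF). Leaving out both pairs in which IL1B rested on 1 spot, chosen after seeing the data, gave 4 members after SM30 and 1 after AS30 at 22 h (IL1B, limma adjusted p = 0.0093, over controls not well above background, so without a fold), and 1 between the control sets at 3 h and 1 between AS30 controls. The F-test gave 1 member with ratios over the mean of 3 controls. Between the control sets at 3 h the count of 0 became 1 with outlier spots kept, 1 with the deposited table, 0 to 1 on leaving out a pair (1 without AS30 22 h pair B) and 2 with the most variable probe of each gene (LIF and SOCS3), which also gave 1 between AS30 controls at 22 h and 3 h (LIF), the LIF calls resting on 1 measured AS30 3 h control. The causes were not tested. Of 664 values of single members under alternatives 607 kept their direction and side of the threshold, and none that passed the threshold reversed.

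Letters A, B and C were not shown to pair the cultures, since deviations from the group means of same-letter arrays correlated at -0.09 to 0.48 over 23030 probes. Without the replicate block, as 18 arrays in 6 groups, 1 member was called after SM30 (IL11, 1.07, limma adjusted p = 0.031) and 0 in each other comparison with controls.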
